A study of Rattus norvegicus with 24 samples.

Results

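The collagen genes of rat tibialis anterior were taken as every gene whose symbol consists of Col, a number, the letter a and a second number, with all transcripts of a gene added together. The deposited transcript table held 40 such genes with 49 transcripts, among 15273 gene symbols with 20027 transcripts. Of the 40 genes, 19 were high enough to be tested, among 11196 tested genes in all. Collagen genes that the table does not list under such a symbol, among them Col1a2 and Col6a3, were not analysed here.

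The muscles came from 12 male Wistar rats, with 3 rats per training period of 2, 10, 20 or 30 days and no genetic change named in the labels. The left hind limb was trained once a day by SpillOver stimulation, in which an implanted pulse generator makes the dorsiflexors contract maximally while part of the current recruits the plantarflexors to resist them. Both tibialis anterior muscles were collected 1 h after the last session, trimmed of surplus connective tissue and sequenced after poly-A selection, which gave 24 samples. The 12 right muscles received no stimulation and formed the control group, called contralateral below, and the trained muscles formed 4 groups of 3. The left limb also carried the electrodes, so electrodes and training cannot be told apart here, and muscles of sham-operated animals were not analysed here. Each trained group was compared with the 12 contralateral muscles to learn which collagen genes differed after a session at each stage of training.

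Collagens are proteins of the extracellular matrix built from 3 chains wound into a triple helix. Fibrillar collagens form the fibres of the connective tissue that wraps muscle fibres and bundles, type IV collagen forms the sheet-like network of the basement membrane, and type VI collagen forms beaded filaments between them. Fibril-associated collagens attach to the surface of fibrils. In skeletal muscle most fibrillar collagen is made by fibroblasts and fibro-adipogenic progenitors, and basement membrane collagen is also made by the muscle fibres and blood vessels it surrounds.

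The deposited values were taken as TPM-type, that is, as corrected for transcript length, because all samples have an equal sum. An equal sum does not by itself show a correction for length, so comparisons of level between genes rest on this reading. Sequencing depth cannot be read from the values. Each sample was divided by a median-of-ratios factor between 0.778 and 1.14, and fold changes are on the log2(value + 1) scale, which understates changes of low genes. A gene was called at an adjusted p under 0.05 in limma. The myofibre markers Acta1, Ckm, Mb, Myh4 and Tnnt3 summed to between 55368 and 89751 in the 24 muscles. Transcripts of the mitochondrial genome held 23.4% to 35.5% of the total in the trained muscles of 2, 10 and 20 days, 39.9% to 43.9% in those of 30 days and 27.8% to 43.7% in the contralateral muscles, where the highest value belonged to 30-day animal 1. Their part in the results at 30 days was not tested. Counts of collagen genes called at 30 days are also given without that library below, while the fold changes and class ratios of 30 days include it.

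In the contralateral muscles the summed value of the 40 collagen genes was 175 ± 40.4 (SD, n = 12). Fibrillar genes held 56.7% ± 6.33 of this sum, basement membrane genes 25.4% ± 5.20, beaded filament genes 14.9% ± 1.94 and fibril-associated genes 2.34% ± 0.393 (SD, n = 12). Col3a1 had the highest level at 56.9 ± 18.7, followed by Col1a1 at 32.9 ± 12.9, Col4a1 at 18.5 ± 2.95, Col6a2 at 13.8 ± 3.03, Col6a1 at 11.4 ± 2.56, Col4a2 at 9.02 ± 1.61 and Col15a1 at 8.95 ± 1.95. The ranges of 1 SD around the means overlapped for each pair of neighbours in this order.

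The summed collagen value was higher in trained muscle at every time point. At 2, 10, 20 and 30 days the sum was 478 ± 112, 857 ± 255, 677 ± 34.0 and 410 ± 7.30 (SD, n = 3). As a share of the deposited total, collagen transcripts held 0.0128% to 0.0355% in the contralateral muscles and 0.0527% to 0.206% in the trained muscles, with the highest share in 10-day trained muscle 1 and no overlap. Against the muscle of the opposite limb of the same animal, the sum was 3.93-fold higher (geometric mean) at 2 days, 4.06-fold at 10 days, 3.34-fold at 20 days and 2.44-fold at 30 days.

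Of the 19 tested genes, 14 rose and 1 fell at 2 days, where 15.4% of all tested genes rose and 13.5% fell. At 10 days 18 rose and none fell, against 15.6% of all tested genes rising and 13.3% falling. At 20 days 16 rose and none fell, against 11.7% and 9.64%, and at 30 days 16 rose and none fell, against 11.1% and 9.46%. Over all 12 trained muscles 18 rose and 1 fell, against 19.9% and 20.3%. The median log2 fold change of the 19 genes was 0.77, 1.42, 1.17 and 0.74 at 2, 10, 20 and 30 days, and that of all tested genes was -0.01, -0.03, -0.03 and -0.01. The 3 trained muscles all lay above the 12 contralateral muscles for 13, 16, 14 and 12 of the 19 genes at the 4 time points, against 8.57%, 10.0%, 8.23% and 7.48% of all tested genes. The 4 comparisons share the 12 contralateral muscles. Col12a1, Col16a1, Col24a1 and Col8a1 reached 1 in fewer than 3 contralateral muscles. For these 4, passing the filter and rising are not independent. Without a filter, 15, 22, 18 and 15 of the 40 genes rose, against 13.4%, 14.1%, 9.56% and 9.06% of all 15273 genes. In that fit 2 fell at 2 days, against 9.82%, and none fell later.

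With the animal as a block, so that each trained muscle was set against its own contralateral muscle, 14 genes rose and 1 fell at 2 days, where 11.8% of all tested genes rose and 9.80% fell. In the same fit 17 rose at 10 days, 13 at 20 days and 12 at 30 days, against 12.1%, 9.94% and 7.21% of all tested genes, and none fell. The gene lost at 10 days was Col4a5 (blocked adjusted p = 0.217). Those lost at 20 days were Col12a1, Col16a1 and Col8a1 (blocked adjusted p = 0.0991, 0.0582 and 0.0520), and Col12a1, Col16a1, Col8a1 and Col5a1 were lost at 30 days (0.167, 0.109, 0.301 and 0.109). Without both muscles of 30-day animal 1, 5 genes were called at 30 days in this fit. The share of all tested genes called without that animal is not given here, so the drop cannot be assigned to the collagen genes. The trained muscle lay above the contralateral muscle in 3 of 3 animals for 17, 18, 16 and 15 of the 19 genes at the 4 time points, against 26.5%, 25.1%, 24.8% and 22.4% of all tested genes.

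**Figure D1:**
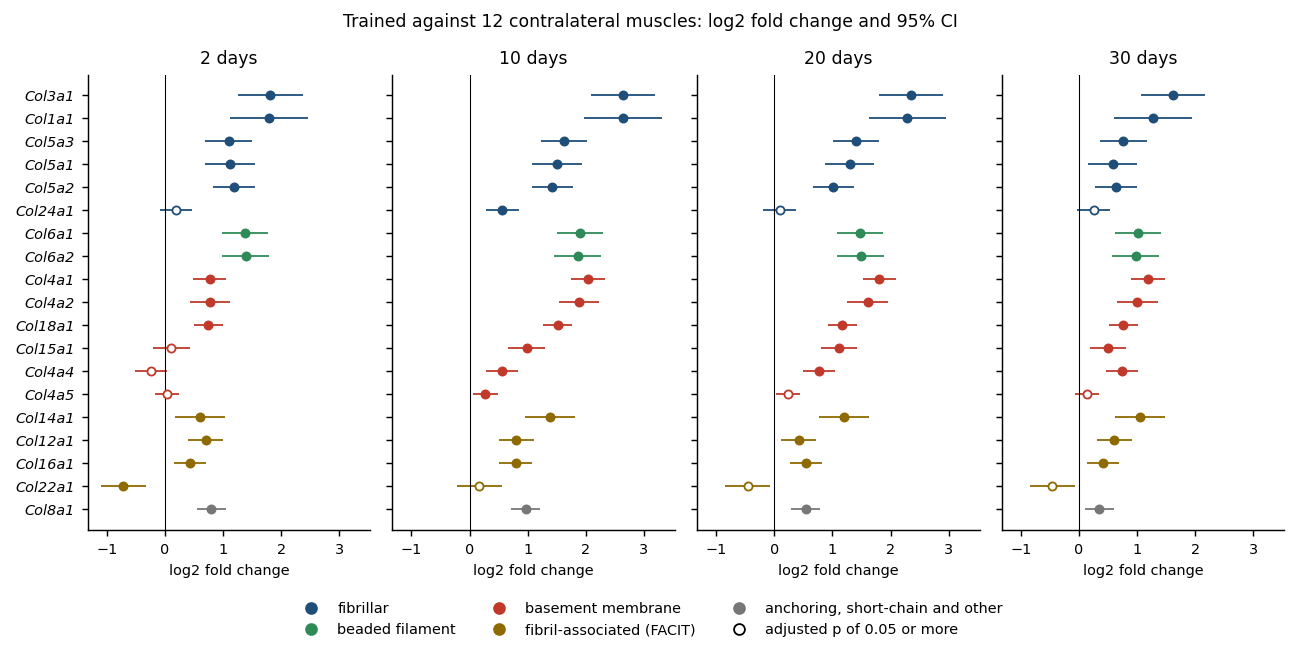
Log2 fold change (x axis) of the 19 tested collagen genes (rows, coloured by class) in the 3 trained muscles of each time point against the 12 contralateral muscles, with 95% confidence intervals from limma; filled points passed an adjusted p of 0.05. At 2 days Col24a1, Col15a1, Col4a4 and Col4a5 did not pass, with values between -0.24 and 0.19, and Col22a1 was the single tested gene that fell.

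Among the fibrillar genes, Col1a1 (ENSRNOG00000003897, Rnor_6.0 chr10:82745801-82762790) encodes the main chain of type I collagen, the stiff fibre of tendon and muscle connective tissue. Its value lay between 8.80 and 63.8 in the contralateral muscles, with a median of 31.9. In the trained muscles it was 79.9, 144 and 108 at 2 days, 330, 153 and 147 at 10 days, 143, 176 and 141 at 20 days, and 72.4, 70.8 and 81.4 at 30 days. Every trained muscle lay above every contralateral muscle, and 10-day trained muscle 1 stood far above the rest. Col1a1 rose by 1.79 ± 0.32 on the log2 scale at 2 days (SE; adjusted p = 0.000181), by 2.65 ± 0.32 at 10 days (1.16e-06), by 2.29 ± 0.32 at 20 days (1.48e-05) and by 1.27 ± 0.32 at 30 days (0.00652).

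Col3a1 (ENSRNOG00000003357, Rnor_6.0 chr9:52023295-52059218) encodes type III collagen, which co-assembles with type I in pliable tissue. Its contralateral values ran from 22.4 to 84.2 around a median of 60.5. The trained muscles gave 146, 229 and 209 at 2 days, 472, 293 and 281 at 10 days, 292, 254 and 290 at 20 days, and 142, 191 and 171 at 30 days. The 2 groups did not overlap at any time point. In that order the log2 fold changes were 1.81, 2.64, 2.35 and 1.62, each ± 0.27 (SE), with limma adjusted p of 1.82e-05, 8.01e-08, 7.23e-07 and 0.000131. The ratio of Col3a1 to Col1a1 was 1.81 ± 0.422 in the contralateral muscles (SD, n = 12) and between 1.75 ± 0.277 at 10 days and 2.25 ± 0.389 at 30 days in the trained groups (SD, n = 3), so this ratio moved by about its spread or less.

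**Figure D2:**
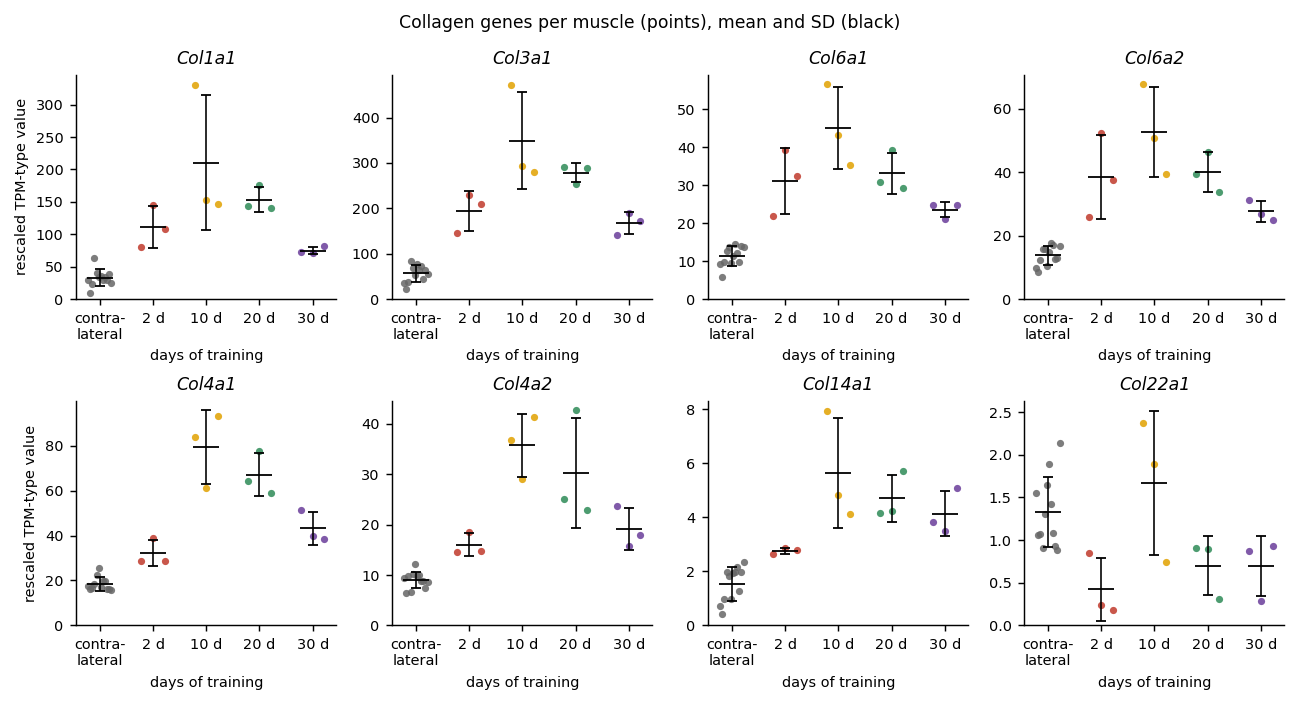
Rescaled TPM-type value (y axis, linear from 0) of 8 collagen genes in the 12 contralateral muscles and in the 3 trained muscles of each time point; points are muscles, black bars the mean and SD. The 12 trained muscles lay above the 12 contralateral muscles for 7 of the 8 genes, the exception being Col22a1.

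The type V chains Col5a1, Col5a2 and Col5a3, which sit inside type I fibrils and help to set their diameter, rose at 2, 10 and 20 days, and Col5a2 and Col5a3 also at 30 days. Col5a2 lay between 2.48 and 6.35 in the contralateral muscles and was 8.55, 14.3 and 12.2 at 2 days, 18.3, 13.6 and 10.2 at 10 days, 9.04, 10.6 and 10.7 at 20 days, and 6.98, 7.49 and 8.16 at 30 days, with no overlap. Its log2 fold change was 1.19, 1.42, 1.02 and 0.64, that of Col5a1 1.12, 1.50, 1.30 and 0.58, and that of Col5a3 1.09, 1.62, 1.41 and 0.77, in the order of the time points. Col5a1 was close to the threshold at 30 days (limma adjusted p = 0.0481) and passed in 5 of 22 alternatives (blocked adjusted p = 0.109, time-matched 0.0825), and 1 of its 3 trained muscles lay above all contralateral muscles.

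Col24a1, a fibrillar collagen known from bone and found here at a contralateral median of 0.522, rose at 10 days alone, by 0.56 ± 0.14 on the log2 scale (SE; adjusted p = 0.00291). The 10-day trained muscles gave 1.64, 1.59 and 0.667, of which the first 2 lay above the contralateral maximum of 0.842. The gene reached a value of 1 in 3 of the 24 muscles, all trained, and so entered the test only through trained muscles. Together with Col12a1, Col16a1 and Col8a1 it was among the 4 tested genes that reached 1 in fewer than 3 contralateral muscles, for which passing the filter and rising are not independent.

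The beaded filament genes Col6a1 (Rnor_6.0 chr20:12658065-12675562) and Col6a2 (chr20:12773427-12801181) encode 2 of the chains of type VI collagen, which anchors the basement membrane to the surrounding matrix and is mutated in Ullrich and Bethlem muscular dystrophies. Col6a1 ranged from 5.96 to 14.5 in the contralateral muscles. In the trained muscles it was 21.9, 39.2 and 32.4 at 2 days, 56.7, 43.3 and 35.3 at 10 days, 30.8, 39.3 and 29.3 at 20 days, and 24.8, 21.2 and 24.8 at 30 days. The groups were apart at each time point. Col6a1 rose by 1.37 ± 0.19, 1.90 ± 0.19, 1.48 ± 0.19 and 1.02 ± 0.19 on the log2 scale (SE; limma adjusted p = 8.67e-06, 6.50e-08, 4.14e-06 and 0.000471).

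Col6a2 ranged from 8.71 to 17.8 in the contralateral muscles and gave 25.8, 52.3 and 37.4 at 2 days, 67.8, 50.9 and 39.4 at 10 days, 39.6, 46.4 and 33.9 at 20 days, and 31.2, 26.8 and 24.9 at 30 days. Its log2 fold change was 1.39, 1.86, 1.49 and 0.98. The ratio of the chains moved by less than its spread, since Col6a2 over Col6a1 was 1.22 ± 0.148 in the contralateral muscles (SD, n = 12) and 1.22 ± 0.0975, 1.16 ± 0.0417, 1.21 ± 0.0688 and 1.18 ± 0.147 in the trained groups (SD, n = 3). The third chain of muscle type VI collagen, Col6a3, was not analysed here.

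The basement membrane genes were led by Col4a1 (ENSRNOG00000016281) and Col4a2 (ENSRNOG00000023972), the 2 chains of the type IV collagen found around nearly all cells that rest on a basement membrane. They are neighbours on chromosome 16 and run in opposite directions from a common promoter. In RefSeq's GRCr8 annotation their starts lie 77 bases apart, with Col4a2 on the minus and Col4a1 on the plus strand. The bases between the starts, chr16:84885521-84885596 of GRCr8 on the plus strand, are shown because both genes start at their ends, with a GC box (GGGCGG on either strand) in capitals 16 bases before the start of Col4a1.
Col4a2-Col4a1: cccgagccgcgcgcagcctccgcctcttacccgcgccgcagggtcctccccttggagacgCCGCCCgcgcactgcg

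Col4a1 lay between 15.8 and 25.5 in the contralateral muscles, a narrow range beside those of Col1a1 and Col3a1. The trained muscles gave 28.8, 38.8 and 28.8 at 2 days, 83.8, 61.3 and 93.2 at 10 days, 64.4, 77.7 and 59.1 at 20 days, and 51.4, 39.8 and 38.3 at 30 days. All 12 lay above the contralateral range, the 2-day muscles by the least. Col4a1 rose by 0.77 ± 0.14 on the log2 scale at 2 days (SE; adjusted p = 0.000209), by 2.04 ± 0.14 at 10 days (1.47e-10), by 1.81 ± 0.14 at 20 days (1.66e-09) and by 1.18 ± 0.14 at 30 days (1.90e-06).

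Col4a2 went with it. It ranged from 6.42 to 12.1 in the contralateral muscles and was 14.5, 18.6 and 14.9 at 2 days, 36.7, 29.0 and 41.5 at 10 days, 25.1, 42.8 and 23.004 at 20 days, and 23.8, 15.8 and 17.97 at 30 days. Its log2 fold change was 0.77, 1.88, 1.61 and 1.01, with limma adjusted p of 0.00120, 1.05e-08, 1.90e-07 and 0.000136. The ratio of Col4a1 to Col4a2 was 2.08 ± 0.326 in the contralateral muscles (SD, n = 12) and lay between 2.00 ± 0.0742 at 2 days and 2.32 ± 0.434 at 20 days in the trained groups (SD, n = 3), within the contralateral spread.

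Of the other basement membrane genes, Col18a1 passed at 2 days, and Col15a1, Col4a4 and Col4a5 did not pass. Col18a1, whose C-terminal fragment is endostatin, lay between 1.46 and 2.65 in the contralateral muscles and rose by 0.75, 1.51, 1.17 and 0.77 on the log2 scale. Col15a1, a related proteoglycan of the outer basement membrane of muscle fibres and capillaries, gave 9.51, 9.42 and 9.78 at 2 days, inside the contralateral range of 6.42 to 11.9. It then gave 20.8, 15.1 and 19.4 at 10 days and 19.3, 20.5 and 20.9 at 20 days, above that range, and 15.3, 13.1 and 10.5 at 30 days, where 1 muscle overlapped it. The log2 fold change of Col15a1 was 0.11 at 2 days (limma adjusted p = 0.614), 0.98 at 10 days (2.56e-05), 1.12 at 20 days (7.94e-06) and 0.50 at 30 days (0.0202). Within animals the 2-day trained muscle lay above its contralateral muscle in 3 of 3, by 0.35, 0.49 and 0.35 on the log2 scale, and the blocked fold change was 0.40 (blocked adjusted p = 0.0776).

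Col4a4, a chain of the type IV network best known from kidney and inner ear, ranged from 1.68 to 3.34 in the contralateral muscles. Its trained values were 2.72, 1.63 and 1.74 at 2 days, 4.34, 4.28 and 4.05 at 10 days, 5.06, 4.23 and 6.002 at 20 days, and 5.31, 4.22 and 5.33 at 30 days. At 2 days these lay within or just below the contralateral range and later above it. The log2 fold change was -0.24 at 2 days (limma adjusted p = 0.170), 0.56 at 10 days (0.00213), 0.77 at 20 days (0.000124) and 0.74 at 30 days (0.000250). Col4a5, on the X chromosome, ranged from 0.834 to 1.53 and rose by 0.27 at 10 days alone (adjusted p = 0.0440), a call that was lost with the animal as a block.

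Of the fibril-associated genes, Col14a1, which binds decorin on fibril surfaces, rose at each time point. It ranged from 0.440 to 2.36 in the contralateral muscles and was 2.64, 2.85 and 2.80 at 2 days, 7.93, 4.84 and 4.13 at 10 days, 4.15, 4.25 and 5.71 at 20 days, and 3.82, 3.50 and 5.08 at 30 days, with no overlap. Its log2 fold change was 0.61 ± 0.21, 1.39 ± 0.21, 1.20 ± 0.21 and 1.05 ± 0.21 (SE; limma adjusted p = 0.0298, 1.77e-05, 0.000158 and 0.000821). Col12a1, a bridge between fibrils that is known from tendon, rose by 0.70, 0.81, 0.42 and 0.61, and Col16a1 by 0.43, 0.79, 0.55 and 0.41. Both had low levels, with contralateral medians of 0.579 and 0.300.

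Col22a1, which marks the myotendinous junction, was the single gene of the 19 tested that fell. It ranged from 0.887 to 2.14 in the contralateral muscles and was 0.848, 0.241 and 0.179 at 2 days, below all of them. At 10 days the trained muscles gave 2.38, 1.89 and 0.739, on both sides of the contralateral range. At 20 days they gave 0.906, 0.890 and 0.308, and at 30 days 0.875, 0.288 and 0.927. Col22a1 fell by 0.72 on the log2 scale at 2 days (SE 0.19; limma adjusted p = 0.00539; blocked adjusted p = 0.0359; 0.0653 against the 3 contralateral muscles of the same time point), and its log2 fold change was 0.16, -0.45 and -0.46 at 10, 20 and 30 days (adjusted p = 0.560, 0.0897 and 0.0861).

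Col8a1, a short-chain collagen of vessel walls and the single tested gene outside the classes above, ranged from 0.259 to 0.661 in the contralateral muscles and rose by 0.79, 0.97, 0.54 and 0.35 on the log2 scale. The 21 collagen genes that were not tested stayed low, with 1.47 as the highest value in any muscle, and 16 of them were listed at 0 in at least 1 muscle. Without a filter on low values, Col7a1 and Col4a3 passed at 2 days, the former higher and the latter lower, Col10a1, Col11a1, Col7a1 and Col8a2 passed as higher at 10 days, and Col11a1 and Col6a6 as higher at 20 days. Among all 15273 genes in that fit, 13.4% were higher and 9.82% lower at 2 days, 14.1% higher and 10.1% lower at 10 days, and 9.56% higher and 7.05% lower at 20 days. None of the 21 passed at 30 days, where 9.06% of all genes were higher and 7.08% lower.

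The timing of the class means depended on the reference and on single animals. Against the pooled contralateral mean of 101, the summed fibrillar value was 333, 597, 462 and 262 in the trained muscles of 2, 10, 20 and 30 days, and the type IV sum was 51.6, 121, 105 and 69.5 against 31.8, so both were highest at 10 days. Within animals, the log2 ratio of the summed fibrillar value to that of the contralateral muscle was 2.48 ± 0.884, 2.19 ± 0.214, 1.95 ± 0.102 and 1.44 ± 0.143 (SD, n = 3) at 2, 10, 20 and 30 days. Without animal 2 the fibrillar mean at 2 days was 2.00, below that of 10 days. For the beaded filament genes it was 1.86 ± 0.687, 1.88 ± 0.235, 1.29 ± 0.171 and 0.95 ± 0.329, and for the type IV chains 0.83 ± 0.351, 1.74 ± 0.382, 1.63 ± 0.209 and 1.26 ± 0.219. The type IV ratio was thus lower than the fibrillar ratio by 1.07, 2.21 and 1.67 in the 3 animals of 2 days. In the other 9 animals the difference of type IV minus fibrillar lay between -0.63 and 0.02. It did not overlap with that of 2 days. This difference uses the contralateral muscles, where the summed fibrillar value was 75.3, 37.6 and 70.3 at 2 days and 82.9 to 160 later. In the trained muscles alone, the type IV share of summed collagen was 9.70% to 13.2% at 2 days. At 10 days it was 11.006% to 19.9%, which overlapped. At 20 and 30 days it was 13.96% to 17.8% and 14.8% to 20.7%, above the 2-day range.

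**Figure D3:**
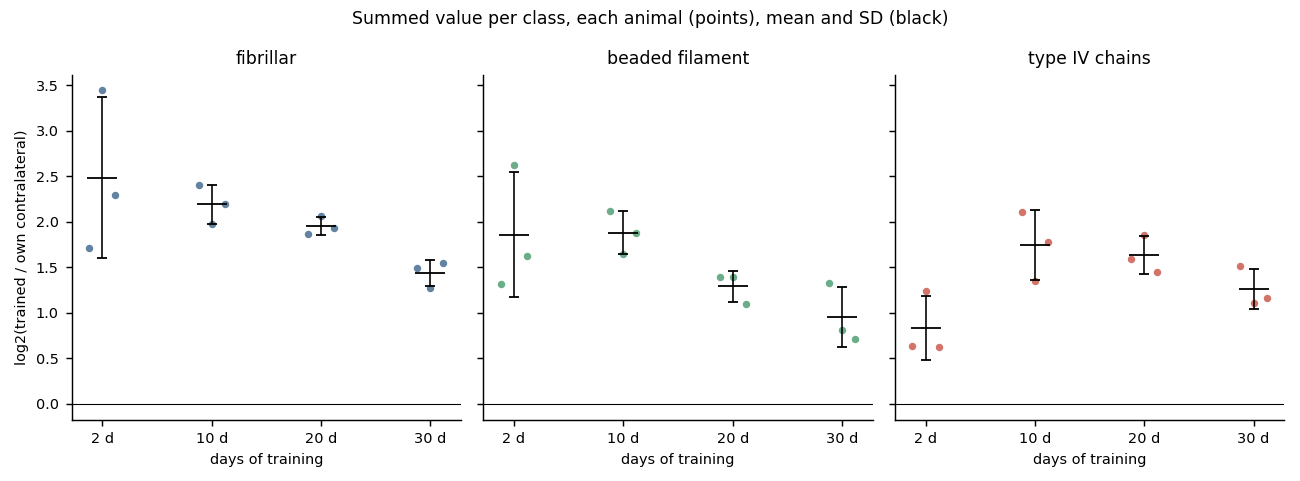
Log2 ratio of the summed value in the trained muscle to that in the contralateral muscle of the same animal (y axis) for fibrillar genes, beaded filament genes and type IV chains at each time point; points are animals, black bars the mean and SD (n = 3). The mean of the type IV ratios was lowest at 2 days, where the fibrillar ratios had their highest mean and their widest spread.

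Between trained groups, 5 of the 19 genes were higher at 10 than at 2 days, and all 5 were basement membrane genes. These were Col4a1 (log2 difference 1.27), Col4a2 (1.10), Col15a1 (0.87), Col4a4 (0.80) and Col18a1 (0.77), in a comparison in which 1.08% of all tested genes were higher. At 20 against 2 days Col4a1, Col4a4, Col15a1 and Col4a2 were higher, by 1.04, 1.02, 1.01 and 0.83, where 3.61% of all genes were higher. At 30 against 2 days Col4a4 was higher by 0.99, where 7.07% were, and 3 genes passed without 2-day trained muscle 1 and 2 without 30-day trained muscle 3. The shares of all tested genes in the fits without a muscle are not given here. No fibrillar gene passed in these 3 comparisons in the fit with pooled controls. With time-matched controls, where the changes from the contralateral muscles are compared, Col5a1 was lower at 30 than at 2 days by 1.08 (limma adjusted p = 0.0388), and Col4a4 no longer passed (0.0809). For Col1a1 the log2 difference between 10 and 2 days was 0.85 (95% CI 0.01 to 1.70; limma adjusted p = 0.329), and for Col3a1 it was 0.82 (0.12 to 1.53; 0.245). With the animal as a block both turned sign, to -0.39 (95% CI -1.37 to 0.60) for Col1a1 and -0.25 (-0.81 to 0.31) for Col3a1, and neither passed (blocked adjusted p = 0.843 and 0.814).

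From 10 to 30 days 9 genes were lower, where 2.29% of all tested genes were. They came from 4 classes, with Col5a1, Col5a2 and Col5a3 lower by 0.92, 0.78 and 0.86 on the log2 scale, Col6a1 and Col6a2 by 0.88 each, Col4a1, Col4a2 and Col18a1 by 0.86, 0.87 and 0.75, and Col8a1 by 0.62. The values for Col1a1 and Col3a1 were -1.37 and -1.02 (limma adjusted p = 0.0590 and 0.0899). Without 10-day trained muscle 1, the muscle with the highest collagen share, none of the 19 genes passed in this comparison. Without 10-day trained muscle 2, or without 30-day trained muscle 1, 2 or 3, the 9 calls became 3, 3, 2 and 3. The shares of all tested genes called in these fits are not given here, so the drops cannot be assigned to the collagen genes.

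None of the 19 calls between trained groups held with the animal as a block, a fit that tests the difference of the 2 within-animal changes (0 genes in each of the 4 comparisons, against 0.0625%, 1.73%, 2.80% and 0.0804% of all tested genes). The smallest blocked adjusted p was 0.0554, for Col4a1 at 20 against 2 days. In that fit the estimate for Col4a1 was 0.91 at 10 against 2 days and 0.89 at 20 against 2 days, and for Col3a1 it was -0.25 and -0.62. Leaving out 2-day trained muscle 3 or 10-day trained muscle 1 brought the 5 calls of 10 against 2 days to 2, and leaving out 2-day trained muscle 2 to 3. For these fits, too, the shares of all tested genes are not given here.

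The contralateral level was lowest at 2 days for most of the genes. For 16 of the 19 genes the mean of the 3 contralateral muscles was lowest at 2 days. These genes were measured in the same 3 muscles. The share of all tested genes with their lowest contralateral mean at 2 days is not given here, so the count cannot be assigned to the collagen genes. At 2, 10, 20 and 30 days Col3a1 averaged 32.3 ± 8.59, 68.5 ± 15.4, 71.9 ± 6.63 and 54.8 ± 10.5 (SD, n = 3), while Col4a1 averaged 16.8 ± 0.594, 22.1 ± 3.54, 18.8 ± 1.58 and 16.1 ± 0.293. In a limma F test over the 4 contralateral groups, 0 of the 19 genes passed, where 0.152% of all tested genes did. At an unadjusted p under 0.05 there were 7 of 19, and 1012 of 11196 genes, with Col3a1 at the lowest adjusted p of 0.0670. The within-animal ratios at 2 days thus rest on the lowest contralateral collagen values of the series, as the plot of each animal's pair shows, and the time-matched contralateral level and training stage cannot be told apart between groups of different animals.

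**Figure D4:**
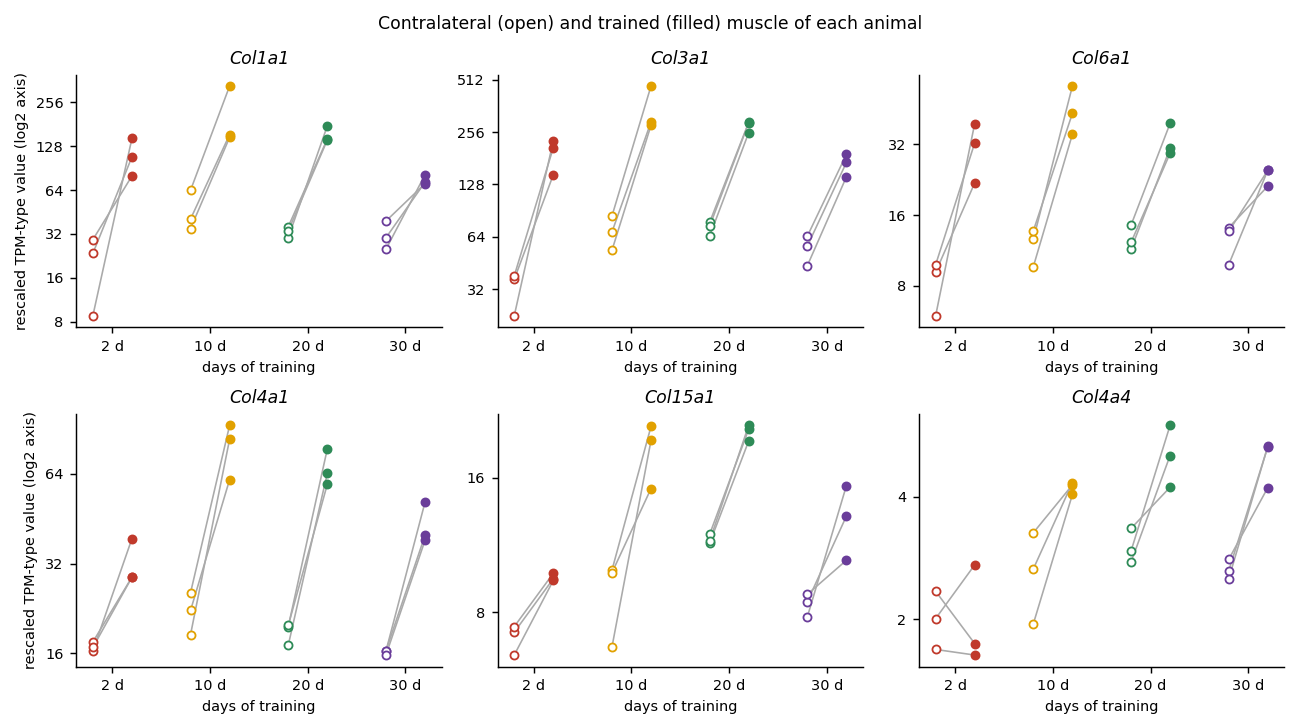
Rescaled TPM-type value (y axis, log2 scale) of 6 collagen genes in the contralateral (open) and trained (filled) muscle of each animal, joined by a line, by days of training. The open points of Col1a1, Col3a1 and Col6a1 reached lowest at 2 days, those of Col4a1 stayed between 15.8 and 25.5, and the trained points of Col15a1 and Col4a4 at 2 days were lower than at later time points.

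For 13 of the 19 tested genes a promoter was found by symbol in RefSeq's GRCr8 set, and for 32 of the 40 genes in all. Col1a1, Col3a1 and Col6a2 had no entry. The 250 bases before each start were searched on both strands for 5 short motifs. These were the TATA box with the letters TATAAA and the CCAAT box, named by its letters. The GC box was searched as GGGCGG and the E-box as CACGTG, and the AP-1 site as TGAGTCA. No motif holds another of the set. A GC box was present in 9 of the 13 promoters and in 32.4% of all 27456 promoters, a CCAAT box in 3 and 34.3%, an AP-1 site in 1 and 3.98%, and a TATA box and an E-box in 0, against 13.1% and 5.79%. Col4a1 and Col4a2 are among both the 9 and the 3. Their windows overlap, so the 13 are not all separate and the GC box shown above is counted for both genes. The motif counts are matches of letters and say nothing of binding.

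The promoters of Col5a2 and Col6a1 are shown as those of a fibrillar and a beaded filament gene that rose at all 4 time points and whose windows overlap no other annotated gene. The Col5a2 window, GRCr8 chr9:55090152-55090401 on the minus strand, held none of the 5 motifs. The Col6a1 window, GRCr8 chr20:11905440-11905689 on the plus strand, held the AP-1 match of the set, given in capitals and starting 99 bases before the gene's start.
Col5a2: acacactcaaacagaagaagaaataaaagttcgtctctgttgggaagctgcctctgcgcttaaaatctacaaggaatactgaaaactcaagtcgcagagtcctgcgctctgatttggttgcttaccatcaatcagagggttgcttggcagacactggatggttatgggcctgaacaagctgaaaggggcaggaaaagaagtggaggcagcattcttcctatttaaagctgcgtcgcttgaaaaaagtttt
Col6a1: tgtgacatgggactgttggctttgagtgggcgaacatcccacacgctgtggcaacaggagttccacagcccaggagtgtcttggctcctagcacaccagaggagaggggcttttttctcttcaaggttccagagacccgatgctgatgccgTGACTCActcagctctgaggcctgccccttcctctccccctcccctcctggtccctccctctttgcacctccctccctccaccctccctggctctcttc

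Genes that act on collagen were described by 5 lists. Among all tested genes, 15.4%, 15.6%, 11.7% and 11.1% rose and 13.5%, 13.3%, 9.64% and 9.46% fell at 2, 10, 20 and 30 days. In the blocked fit 11.8%, 12.1%, 9.94% and 7.21% rose. These are the shares to set beside the counts of each list. Of 13 tested genes for folding and modification of the chains in the cell, 8 rose and 1 fell at 2 days, and 6 and 1, 4 and 1, and 4 and 1 did at 10, 20 and 30 days, with medians of 0.43, 0.25, 0.15 and 0.01 on the log2 scale. With the block 8, 5, 4 and 2 rose and 1 fell at each time point. Serpinh1, the collagen chaperone Hsp47, rose from 39.3 ± 6.01 in the contralateral muscles (SD, n = 12) to 85.3 ± 25.4 at 2 days and 98.0 ± 14.5 at 10 days (SD, n = 3), by 1.07 and 1.30. At 20 days its log2 fold change was 0.92, and at 30 days 0.61, which was lost with the block (blocked adjusted p = 0.0584). P4ha1, a prolyl 4-hydroxylase subunit named after its values were seen, was the gene that fell at all 4 time points, by 0.85, 0.49, 0.70 and 0.38.

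Of 7 tested genes for trimming and crosslinking of secreted collagen, 6, 7, 7 and 6 rose at 2, 10, 20 and 30 days and none fell, with medians of 0.94, 1.01, 0.93 and 0.57, and 6, 7, 5 and 3 rose with the block. Pcolce, which speeds the removal of the C-terminal propeptide of fibrillar procollagen, rose by 1.48, 1.74, 1.45 and 0.83 from a contralateral mean of 7.51 ± 1.80 (SD, n = 12). Lox, the crosslinking lysyl oxidase, rose by 1.37 at 2 days and by 0.98 at 30 days, where the block gave an adjusted p of 0.0810. Loxl2, a second enzyme of that family with a preference for basement membrane collagen, rose by 1.53 at 10 days and by 1.04 at 20 days.

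Of 8 tested genes for collagen breakdown and its inhibitors, 3 rose and 1 fell at 2 days and 6 rose and none fell at each later time point, with medians of 0.35, 0.92, 0.95 and 0.78. With the block, 6, 6, 6 and 5 rose at 2, 10, 20 and 30 days, and 1 fell at 2 days and 1 at 10 days. Timp1, an inhibitor of matrix metalloproteinases, rose by 2.59, 2.00, 1.56 and 1.02 from a contralateral mean of 1.56 ± 1.06 (SD, n = 12), and Timp4 fell by 0.77 at 2 days. Mmp2, a gelatinase, rose by 1.29 at 20 days and 1.03 at 30 days, and Ctsk, the collagen-cleaving cathepsin K, by 1.51 at 10 days.

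Of 4 tested collagen receptors, Ddr1 and Itgb1 rose at 2 days by 1.06 and 1.02 and at 10 days by 0.80 and 1.02. Ddr2 and Itga11 passed at 20 days with 0.46 and 0.42 and Itga11 at 30 days with 0.42, and these calls were lost with the block (blocked adjusted p = 0.463, 0.0959 and 0.0687). Of 9 tested basement membrane partners, 1, 8, 6 and 6 rose at 2, 10, 20 and 30 days and none fell, with medians of 0.30, 1.02, 0.79 and 0.65. The gene that rose at 2 days was Lamc1, the laminin gamma 1 chain, by 0.58. With the block 6, 7, 5 and 4 rose. Lama2, the laminin chain of the muscle fibre membrane, rose by 1.41 at 10 days, Nid2, a nidogen that links laminin and type IV collagen, by 1.29 at 10 days and 1.17 at 20 days, and Lamb1 by 1.08 at 20 days.

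Markers of other cell types were counted as well, and since whole muscle was sequenced, more cells of a type and more RNA per cell cannot be told apart. Of all tested genes 15.4%, 15.6%, 11.7% and 11.1% rose and 13.5%, 13.3%, 9.64% and 9.46% fell at the 4 time points. With the block 11.8%, 12.1%, 9.94% and 7.21% rose. On lists this short, single calls are not read as results about a cell type. Of the 6 fibroblast or fibro-adipogenic progenitor markers, 2, 4, 5 and 4 rose at 2, 10, 20 and 30 days and none fell, and with the block 4, 4, 3 and 3 did. Their sum lay between 50.3 and 135 in the contralateral muscles and between 98.1 and 149, 117 and 223, 176 and 229, and 179 and 202 in the trained groups. The log2 fold change of Dcn, the proteoglycan decorin, was 0.12, 0.72, 1.15 and 1.08, the first of which did not pass, and that of Lum, the proteoglycan lumican, was 1.71, 1.85, 1.27 and 1.13. Of 5 tested macrophage markers, 4 rose at 2 days and 5 later, and their list summed to between 4.17 and 13.2 in the contralateral and between 14.7 and 40.8 in the trained muscles.

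Of 5 endothelial markers, none rose and Kdr fell at 2 days, where 15.4% of all tested genes rose and 13.5% fell. At 10, 20 and 30 days 3, 2 and 1 rose, against 15.6%, 11.7% and 11.1%. These shares, with those of falling genes above, apply to the lists that follow. Of 5 pericyte or smooth muscle markers, 2 rose and Rgs5 fell at 2 days, and 3, 2 and 2 rose later. Of 3 tenocyte markers 0, 1, 2 and 0 rose, of 3 Schwann cell markers 2 fell at 30 days, of 2 adipocyte markers none passed at any single time point, and of 2 satellite cell markers Myf5 rose at 2 and 10 days. Of the 5 myofibre markers, 2, 3, 3 and 2 fell and 0, 2, 1 and 1 rose. With the block the falls of Kdr and Rgs5 at 2 days, the Schwann cell falls at 30 days, the endothelial rise at 30 days and the rise of Myf5 at 2 and 10 days were lost. In that fit 1, 2, 2 and 1 pericyte or smooth muscle markers and 0, 1, 3 and 0 tenocyte markers rose, Cdh15 at 10 days and Myf5 at 30 days rose among the satellite cell markers, and 1, 2, 1 and 1 myofibre markers fell and 0, 1, 1 and 1 rose. No marker that the table lists was at 0 in all 24 muscles, and the part of these cells in the collagen results was not tested.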

How the data were processed

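Poly-A RNA of 24 tibialis anterior muscles was sequenced in paired reads. Per the labels and the study's methods, the authors trimmed the reads, aligned them with STAR to Rnor_6.0 (rn6) in Partek Flow, quantified Ensembl transcripts and normalised with DESeq2's median of ratios. The deposited transcript values were taken as TPM-type because each sample sums to 634431, which alone does not show a correction for length. The authors also deposited a gene-level signal table of 4635 genes, 6 of them collagens, used here as an alternative, since 99.2% of its values lay within 0.1 (log2) of the transcript sums after centring by gene and sample. Their table of comparisons, with p-values and ratios, was not used. No count table was used, so no count model was run and the depth of each sample cannot be read from the values. All columns of values matched a sample, and 0 pairs of libraries were identical.

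Here each sample was rescaled by its median of ratios (16230 transcripts above 0 in all samples), and transcripts were summed per gene symbol and filtered (at least 1 in at least 3 samples). A linear model of 5 groups was then fitted to log2(value + 1) with limma (3.58.1, R 4.3.3), with Benjamini-Hochberg adjustment over 11196 genes and a threshold of 0.05. Further work used Python 3.11.15, numpy 2.4.6, pandas 2.3.3 and matplotlib 3.10.9. The fit was tested on simulated data. Replicate numbers mark animals: deviations from group means correlated at a median of 0.174 between the 2 muscles of an animal (12 pairs) and at -0.100 between animals of 1 time point (24 pairs), so the animal as a block was an alternative. The others were the values as deposited, a pseudocount of 0.1, no filter, a mean of at least 10, the transcript with the highest mean, time-matched controls, an intensity trend, the gene-level table, each trained muscle left out and contralateral 30-day library 1 left out. Leaving that library out of the time-matched fit, or its animal out of the block fit, was added after seeing the data.

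The collagen genes, their classes and the other lists were chosen with earlier results of these data known. Collagen genes named with full values had a mean of at least 50 in a group or were among the 4 largest changes of a time point that passed the test with all 3 trained muscles outside the contralateral range. Other tested genes were described by class, and those given with values in every muscle (Col5a2, Col15a1, Col4a4, Col22a1 and Col24a1) were chosen after their values were seen, and 2 genes of each other list were named per time point by the same measure. Promoter sequences are from RefSeq (GRCr8), and gene positions from the deposited table (Rnor_6.0). Labels give 3 animals per time point, which the analysis follows. P-values of the main fit measure the spread between muscles within the groups of 1 experiment and do not use the pairing within animals. Those of the blocked fit measure the spread of the within-animal differences.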

Additional observations from a re-analysis of the deposited data

Results flagged for a closer look

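The 19 differences between trained groups that passed the test are given here again because trained muscles of 2 time points differed in a direct comparison (limma, adjusted over all tested genes). That comparison does not use the contralateral muscles, whereas the blocked fit tests the difference of the changes from them. The comparisons share trained groups with each other. At 10 against 2 days Col4a1 differed by 1.27 on the log2 scale (adjusted p = 0.000518, blocked 0.148), Col4a2 by 1.10 (0.00696, 0.267), Col15a1 by 0.87 (0.0202, 0.404), Col4a4 by 0.80 (0.0121, 0.460) and Col18a1 by 0.77 (0.00837, 0.345). At 20 against 2 days the values were 1.04 for Col4a1 (0.000714, 0.0554), 1.02 for Col4a4 (0.000444, 0.155), 1.01 for Col15a1 (0.00170, 0.420) and 0.83 for Col4a2 (0.0157, 0.229). At 30 against 2 days Col4a4 differed by 0.99 (0.000348, 0.0920).

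At 30 against 10 days the log2 differences were -0.92 for Col5a1 (adjusted p = 0.0470, blocked 0.267), -0.78 for Col5a2 (0.0443, 0.399), -0.86 for Col5a3 (0.0489, 0.375), -0.88 for Col6a1 (0.0406, 0.239), -0.88 for Col6a2 (0.0469, 0.248), -0.86 for Col4a1 (0.00888, 0.456), -0.87 for Col4a2 (0.0233, 0.358), -0.75 for Col18a1 (0.00729, 0.274) and -0.62 for Col8a1 (0.0249, 0.301). Each group held 3 muscles, and in the blocked fit none of the 19 passed, nor did any with time-matched controls, where the lowest adjusted p was 0.0513.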

How the results depend on the processing

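The counts of collagen genes called at 2, 10, 20 and 30 days and over all trained muscles (15, 18, 16, 16 and 19 of 19) moved by over 1.5 times where fewer genes could be tested, with 6, 7, 7, 7 and 7 of 7 genes at a mean of at least 10 and 6 of 6 genes in each comparison in the gene-level table. At 30 days 8 were called with time-matched controls without contralateral 30-day library 1, and 5 with the animal as a block without that animal, both added after seeing the data. The shares of all tested genes called in these added fits are not given here, so the drops cannot be assigned to the collagen genes. Leaving out 1 trained muscle or that library gave 12 to 15, 17 to 17, 14 to 16, 11 to 15 and 18 to 19, again without the shares of all tested genes.

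The calls between trained groups (5, 4, 1 and 9 for 10 against 2, 20 against 2, 30 against 2 and 30 against 10 days) were less stable. With the replicate block (animal) all 4 counts were 0, and so were those of 10 against 2, 20 against 2 and 30 against 10 days with time-matched controls, and that of 30 against 10 days with either added setting and of 30 against 2 days with the added block. With time-matched controls 1 gene passed at 30 against 2 days, but it was Col5a1, lower by 1.08 (adjusted p = 0.0388), while Col4a4 did not pass (0.0809). A mean of at least 10 gave 3, 0 and 5 for 10 against 2, 30 against 2 and 30 against 10 days, and with gene-level values the first 3 counts were 2, 2 and 0. For 30 against 2 days the values as deposited gave 5 and no filter 3, and for 30 against 10 days the values as deposited gave 14, no filter 5 and a pseudocount of 0.1 gave 4. Leaving out 1 muscle gave 2 to 6, 3 to 5, 1 to 3 and 0 to 10, without the shares of all tested genes beside them. The contralateral muscles over time gave 1 gene instead of 0 at a mean of at least 10 and with an intensity trend. The within-animal log2 ratio of basement membrane genes at 20 days was 1.46, and 1.63 with type IV chains alone. No value that passed the test in either fit changed direction under any alternative run. Values that passed in neither fit did, in 5 of 1319 values against the contralateral muscles and 66 of 1192 between trained groups, over all alternatives. With the animal as a block 17 of 76 values between trained groups changed sign, and Col1a1 and Col3a1 at 10 against 2 days went from 0.85 and 0.82 to -0.39 and -0.25. The cause of the changes was not tested beyond the smaller number of genes or muscles.

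Values as deposited moved the median log2 fold change of all genes to -0.18 at 30 days, so changes are best read relative to it. The study gives a minimum number of reads for all samples, but the depth of each cannot be read from these values. No limit of detection can therefore be given for the low genes. Apart from the calls named beside the results, the block changed no call of a collagen gene against the contralateral muscles.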
